A study of Homo sapiens with 24 samples.

Results

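P-Rex1, the product of PREX1, and 9 other exchange factors that act on Rac were followed in T-47D cells on 24 arrays of the Affymetrix Human Gene 1.0 ST type. T-47D is an estrogen receptor-positive luminal breast cancer line. The 10 genes were PREX1, PREX2, VAV1, VAV2, VAV3, TIAM1, TIAM2, DOCK1, ECT2L and ARHGEF7. A gene was measured where the annotation of the platform pairs a probe set with its symbol, or an older alias, and with no other gene. This gave 9 genes with exactly 1 probe set each, out of 28536 probe sets on the array. ECT2L had no such probe set and was not analysed here. No member value entered the choice of probe sets.

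The arrays fall into 8 groups of 3 biological replicates. Serum-starved T-47D cells were parental cells, cells transfected with a non-target control duplex (NTC), or cells transfected with either of a pair of RNAi duplexes against P-Rex1 (RNAi #1 and RNAi #2). Each kind of cell received vehicle (PBS) or heregulin (HRG), which binds the receptors ErbB3 and ErbB4, at 20 ng/ml for 6 h. RNAi was transient and T-47D is 1 cell line, so the groups model a partial lowering of the PREX1 transcript in a single background. Values are log2 expression values after Robust Multichip Average (RMA) normalization, and array medians lay between 6.04 and 6.18. All 12 luminal markers on a list that included ESR1, GATA3 and KRT8 lay above the median on every array, and 0 of 11 leukocyte markers did. The mean log2 value of the leukocyte markers was 4.60 to 4.83 per array and that of 10 fibroblast markers 5.16 to 5.59, with COL1A1 the 1 fibroblast gene above the median throughout. On the second principal component 4 arrays stood apart (parental vehicle 3, NTC HRG 3, RNAi #1 vehicle 2 and RNAi #2 HRG 3). The member values that cross the adjusted p threshold without them are named below.

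Rac is a small GTPase that drives actin assembly in the leading edge of moving cells, and it is active while bound to GTP. Guanine nucleotide exchange factors (GEFs) open its nucleotide pocket so that GDP leaves and GTP enters, whereas GTPase-activating proteins (GAPs) return it to the inactive form. P-Rex1 is activated jointly by the lipid PIP3 and by G protein beta-gamma subunits, and in luminal breast cancer cells it carries signals from ErbB receptors and CXCR4 to Rac1. PREX2 encodes its close relative. The Vav proteins are exchange factors switched on by tyrosine phosphorylation, Tiam1 and Tiam2 are Dbl-family factors selective for Rac, Dock1 belongs to the separate DOCK family and works with ELMO adaptors, and ARHGEF7 encodes beta-PIX, which binds PAK kinases.

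The sequences shown are those of the windows upstream of the transcript starts of PREX1 and VAV2, the members whose transcripts moved most in the comparisons below. Each holds the 250 bases before a RefSeq transcript start in GRCh38.p14, written 5' to 3' on the strand of the gene, with every GC box (GGGCGG on either strand) in capitals. The PREX1 window lies at chr20:48828000-48828249 on the minus strand, inside the span RefSeq annotates for the gene, and the VAV2 window lies at chr9:133992325-133992574 on the minus strand.
PREX1: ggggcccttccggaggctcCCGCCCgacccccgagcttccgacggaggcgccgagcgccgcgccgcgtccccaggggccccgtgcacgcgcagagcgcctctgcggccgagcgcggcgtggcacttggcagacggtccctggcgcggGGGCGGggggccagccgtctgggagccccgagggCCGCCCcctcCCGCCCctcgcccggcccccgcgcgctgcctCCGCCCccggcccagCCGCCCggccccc
VAV2: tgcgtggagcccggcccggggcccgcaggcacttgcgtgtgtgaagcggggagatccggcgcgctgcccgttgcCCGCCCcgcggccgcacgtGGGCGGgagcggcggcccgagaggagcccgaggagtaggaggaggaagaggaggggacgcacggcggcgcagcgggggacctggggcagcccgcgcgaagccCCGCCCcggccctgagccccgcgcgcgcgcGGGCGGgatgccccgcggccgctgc
The PREX1 window held 6 GC boxes and 39 CpG dinucleotides, and 84.8% of its bases were G or C. The VAV2 window held 4 GC boxes, 40 CpG dinucleotides and 81.2% G or C. Both are CpG-rich: the median over 35116 promoter windows of the same length was 11 CpG dinucleotides (quartiles 3 and 23), and 42.6% of the windows held a GC box. An AP-1 site (TGANTCA) occurred in neither window and in 6.57% of all windows, a CRE (TGACGTCA) in neither and in 1.65%, and an E-box (CACGTG) once in the VAV2 window and in 6.34% of all windows. Motifs were searched on both strands, and these matches describe the windows only.

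PREX1 was the member with the widest range, from 8.45 to 10.63 on the log2 scale over the 24 arrays. Its values followed both the RNAi and the HRG. Parental cells with vehicle read 10.63, 10.59 and 10.59, and NTC cells with vehicle 10.52, 10.36 and 10.38. RNAi #1 cells with vehicle read 9.09, 8.91 and 8.98, and RNAi #2 cells with vehicle 8.997, 8.972 and 9.033. All 6 silenced arrays thus lay more than a log2 unit below the 6 control arrays, and those of the 2 duplexes overlapped each other. Against the mean of parental and NTC cells the residual PREX1 signal was 34.9% with #1 (log2 difference -1.52, SE 0.065, limma adjusted p = 1.61e-12) and 35.1% with #2 (-1.51, SE 0.065, limma adjusted p = 1.76e-12). RNAi #2 differed from #1 by 0.01 (SE 0.075, limma adjusted p = 0.984), a value that turned to -0.04 without RNAi #1 vehicle 2 and to -0.01 without RNAi #2 vehicle 3. The arrays hold bulk RNA, so fewer cells with the transcript and less transcript per cell cannot be told apart.

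HRG itself lowered PREX1. With HRG the parental arrays read 9.64, 9.52 and 9.50, and the NTC arrays 9.53, 9.52 and 9.30. The 6 control arrays with HRG all lay below the 6 without it and above every silenced array (exact two-sided permutation test of HRG in controls, p = 0.00216, the smallest that 6 against 6 arrays allow, and 0.0108 after Benjamini-Hochberg adjustment over 10 such tests of PREX1 and VAV2). Groups without overlap always give that smallest p. The 10 tests were chosen with earlier results of these data known, and the adjustment does not cover that choice, so they add no separate support. PREX1 fell by 1.05 on the log2 scale in parental cells, to 48.3%, and by 0.97 in NTC cells, to 50.9% (SE 0.075 each, limma adjusted p = 4.41e-10 and 1.33e-09). With HRG 3 of the 12 luminal markers were called lower in parental cells and 0 higher, beside 2.41% and 2.86% of all probe sets. These were ESR1 (-0.98, its other probe set 0.00), PGR (-0.79) and ERBB3 (-0.77), with limma adjusted p of 3.08e-06 or less. At the adjusted p alone 5 luminal markers were lower and 2 higher, and the list median was -0.027, beside -0.031 over all probe sets. Of the 10 fibroblast markers 1, LUM, was called higher (0.85, limma adjusted p = 1.38e-05) and 0 lower, with a list median of -0.05. The part of either list in the HRG differences of the members was not tested.

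In the silenced cells the fall was smaller. RNAi #1 cells with HRG read 8.60, 8.45 and 8.55, and RNAi #2 cells with HRG 8.83, 8.57 and 8.80. Neither group overlapped its vehicle group. PREX1 went to 72.6% of the vehicle level in RNAi #1 cells (log2 -0.46, SE 0.075, limma adjusted p = 6.59e-05) and to 83.0% in RNAi #2 cells (-0.27, SE 0.075, limma adjusted p = 0.0158). Both are below 1.5-fold, and the second missed the adjusted threshold without RNAi #2 vehicle 3 (-0.25, limma adjusted p = 0.0563) or RNAi #2 HRG 2 (-0.19, limma adjusted p = 0.118), and in a fit of the compared groups alone (limma adjusted p = 0.0682). The log2 effect of HRG differed from that in controls by 0.55 with #1 (SE 0.092, limma adjusted p = 0.00785) and by 0.74 with #2 (SE 0.092, limma adjusted p = 3.06e-05). The same difference, read the other way, is that silencing left 51.1% (#1) and 58.7% (#2) of the PREX1 signal of controls once both had received HRG. These contrasts share arrays and are not independent. The 2 ways of lowering PREX1, RNAi and HRG, together gave the lowest readings of the series: the 6 arrays with both ran from 8.45 to 8.83, under every array with one of them.

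**Figure D1:**
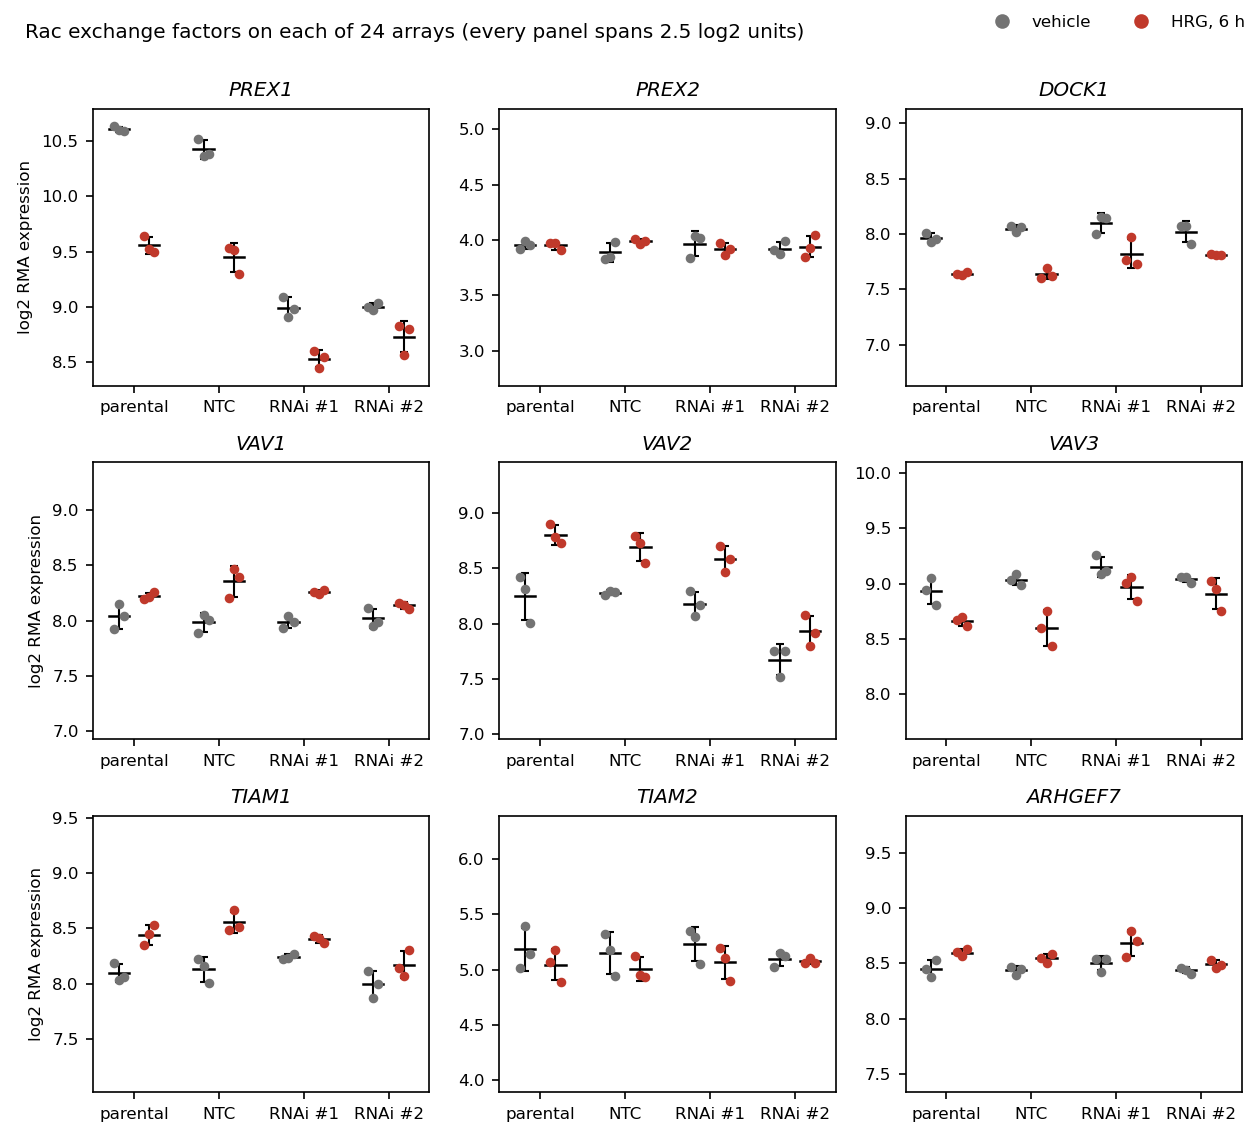
Log2 RMA expression of the 9 measured Rac exchange factors on each array, by kind of cell (horizontal axis) and treatment (grey, vehicle; red, HRG for 6 h); points are arrays, horizontal lines group means and bars SD (n = 3). Every panel spans the same number of log2 units: PREX1 runs from 8.45 to 10.63, VAV2 drops in RNAi #2 cells, and PREX2 stays between 3.83 and 4.04.

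PREX2, the closest relative of PREX1, gave no difference that passed the test. Its probe set read 3.83 to 4.04 over all 24 arrays, below the 25% quantile of every array (4.27 to 4.43), so it lay among the dimmest probe sets, where RMA compresses differences. Its largest log2 difference among the HRG and RNAi comparisons was 0.10 (HRG in NTC cells, SE 0.062, limma adjusted p = 0.248).

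The 3 VAV genes did not move alike. VAV2, a broadly expressed member of the family, rose with HRG. Its vehicle arrays read 8.42, 8.31 and 8.01 in parental cells and 8.26, 8.30 and 8.29 in NTC cells. With HRG they read 8.90, 8.78 and 8.73 in parental cells and 8.79, 8.73 and 8.55 in NTC cells. Every HRG array of the controls lay above every vehicle array (mean difference 0.48, exact two-sided permutation p = 0.00216, adjusted 0.0108). VAV2 rose by 0.56 in parental cells (1.47-fold, SE 0.099, limma adjusted p = 0.000126), by 0.41 in NTC cells (1.33-fold, SE 0.099, limma adjusted p = 0.00231) and by 0.41 in RNAi #1 cells (1.33-fold, SE 0.099, limma adjusted p = 0.00324). In RNAi #2 cells the difference was 0.26 (SE 0.099, limma adjusted p = 0.0834). All 4 rises were under 1.5-fold, although the rise in parental cells crossed it when parental vehicle 1 or 2 or parental HRG 3 was left out, reaching up to 0.64.

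VAV2 was also the 1 member that passed the test between the RNAi duplexes in the main fit. In some alternatives TIAM1, ARHGEF7 and PREX1 also passed it with HRG. RNAi #1 cells read 8.29, 8.07 and 8.17 with vehicle and 8.70, 8.47 and 8.59 with HRG. RNAi #2 cells read 7.76, 7.52 and 7.75 with vehicle and 8.08, 7.80 and 7.92 with HRG. The #1 arrays overlapped the controls in both treatments, whereas the #2 arrays lay under every control array of the same treatment. Against controls VAV2 fell by 0.59 with #2 and vehicle, to 66.5% (SE 0.085, limma adjusted p = 0.000224), and by 0.81 with #2 and HRG, to 56.9% (SE 0.085, limma adjusted p = 6.07e-07). The first of these is 1.503-fold and sits on the threshold: it dropped under 1.5-fold without parental vehicle 1, parental vehicle 2, NTC vehicle 2 or RNAi #2 vehicle 2, ranging from -0.65 to -0.51 over all single arrays left out. With #1 the differences were -0.09 (limma adjusted p = 0.719) and -0.16 (limma adjusted p = 0.307). Exact two-sided permutation tests gave p = 0.0238 for #2 in each treatment, the smallest that 3 against 6 arrays allow (0.0298 adjusted), and p = 0.357 and 0.119 for #1 (0.357 and 0.132 adjusted). The p for #2 restates that its arrays do not overlap the controls, and VAV2 was chosen for these tests with earlier results known.

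The difference between duplexes was tested directly. VAV2 was lower with #2 than with #1 by a log2 difference of -0.50 without HRG (SE 0.099, limma adjusted p = 0.00747) and -0.65 with HRG (SE 0.099, limma adjusted p = 0.000312), while the #2 minus #1 difference of PREX1 was 0.01 without HRG and 0.20 with it (SE 0.075, limma adjusted p = 0.148). Without RNAi #2 vehicle 2 the first VAV2 difference was -0.42 (limma adjusted p = 0.0669), and it missed the threshold in a fit of the compared groups alone (limma adjusted p = 0.0778). Leaving aside RNAi #2, the 9 vehicle arrays of VAV2 read 8.01 to 8.42 and the 9 HRG arrays 8.47 to 8.90, with no overlap. VAV2 differed in its HRG response from controls by -0.07 with #1 and -0.23 with #2 (SE 0.12 each, limma adjusted p = 0.761 and 0.390). Among the 10 fibroblast markers 1, LUM, which encodes the matrix proteoglycan lumican, was called in the same contrast, beside 0.147% of all probe sets without HRG and 0.413% with HRG. LUM was lower with #2 than with #1 by a log2 difference of -1.24 without HRG and -1.45 with HRG (SE 0.12 each, limma adjusted p = 4.20e-06 and 2.63e-07). The list as a whole stayed at a mean of 5.16 to 5.59 per array, and its part in the VAV2 difference was not tested.

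**Figure D2:**
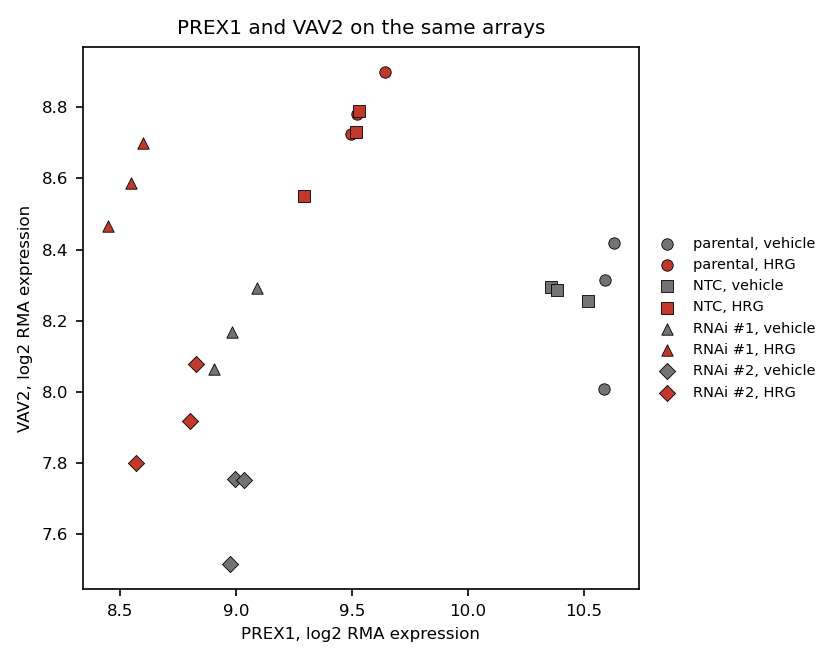
VAV2 against PREX1, both in log2 RMA expression, on each of the 24 arrays (symbol, kind of cell; grey, vehicle; red, HRG). Silenced arrays lie to the left at 8.45 to 9.09 for PREX1, and for VAV2 the RNAi #2 arrays lie below the RNAi #1 arrays of the same treatment (7.52 to 7.76 against 8.07 to 8.29 with vehicle, 7.80 to 8.08 against 8.47 to 8.70 with HRG).

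VAV1, best known from blood cells, read 7.89 to 8.47, above the median of every array, while the leukocyte markers stayed low. It rose with HRG by 0.37 in NTC cells (SE 0.067, limma adjusted p = 0.000158) and by 0.27 in RNAi #1 cells (SE 0.067, limma adjusted p = 0.00450), from 7.89 to 8.05 without HRG to 8.20 to 8.47 with it in NTC cells. In parental cells the rise was 0.19 (SE 0.067, limma adjusted p = 0.0406), and it missed the threshold when parental vehicle 1 or 3 or any 1 of the parental HRG arrays was left out (0.13 to 0.20, limma adjusted p = 0.0623 to 0.211). In RNAi #2 cells VAV1 read 7.96 to 8.12 with vehicle and 8.11 to 8.16 with HRG, which overlap. RNAi gave no VAV1 difference that passed in the main fit, the largest being -0.15 with #2 and HRG (limma adjusted p = 0.0908). That value passed with NTC as the only control (-0.22, limma adjusted p = 0.0374) and without NTC HRG 1 (-0.19, limma adjusted p = 0.0217).

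VAV3 went the other way from its relatives. It fell with HRG by 0.28 in parental cells, from 8.95, 9.05 and 8.81 to 8.67, 8.69 and 8.61 (SE 0.082, limma adjusted p = 0.0122), and by 0.44 in NTC cells, from 9.03, 9.09 and 8.99 to 8.60, 8.76 and 8.44 (SE 0.082, limma adjusted p = 0.000215). Neither pair of groups overlapped. Without parental vehicle 2 the first was -0.22 (limma adjusted p = 0.0766). In silenced cells the differences were -0.18 and -0.13 and did not pass (limma adjusted p = 0.101 and 0.340). After HRG, VAV3 was higher in silenced cells than in controls: RNAi #1 arrays lay at 8.85 to 9.06 and RNAi #2 arrays at 8.75 to 9.03, against 8.44 to 8.76 in the 6 controls, so that the #1 arrays lay above all controls and the lowest #2 array lay just under the highest control. The difference was 0.34 with #1 and 0.28 with #2 (SE 0.071 each, limma adjusted p = 0.00659 and 0.00830), and it was 0.30 without RNAi #1 HRG 2 (limma adjusted p = 0.0661) and 0.22 without RNAi #2 HRG 1 (limma adjusted p = 0.0838). The test of the HRG effect itself between silenced and control cells did not pass for VAV3 (0.17 and 0.22, limma adjusted p = 0.355 and 0.274).

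TIAM1 rose with HRG in controls. Parental arrays went from 8.19, 8.03 and 8.06 to 8.35, 8.45 and 8.53, and NTC arrays from 8.22, 8.16 and 8.01 to 8.49, 8.66 and 8.51, without overlap. The rise was 0.35 in parental cells and 0.42 in NTC cells (SE 0.075 each, limma adjusted p = 0.000884 and 0.000106). In RNAi #1 and #2 cells the differences were 0.16 and 0.18 (limma adjusted p = 0.116 and 0.120), and the interactions of -0.22 and -0.21 did not pass (limma adjusted p = 0.193 and 0.258). The TIAM1 rise in RNAi #1 cells passed with arrays centred on their median (0.24, limma adjusted p = 0.0359). With HRG, TIAM1 was 0.33 lower in RNAi #2 cells than in controls (SE 0.065, limma adjusted p = 0.00109), all 3 #2 arrays (8.07 to 8.31) lying under the 6 controls (8.35 to 8.66). With #1 it was -0.09 (limma adjusted p = 0.447), and #2 against #1 was -0.23 (limma adjusted p = 0.0798). TIAM2 lay below the array median throughout, at 4.89 to 5.39, and no difference passed. Its largest was -0.17, for HRG in RNAi #1 cells (SE 0.11, limma adjusted p = 0.258).

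DOCK1 fell with HRG in all 4 kinds of cells. Parental arrays went from 8.01, 7.93 and 7.95 to 7.64, 7.63 and 7.66, and NTC arrays from 8.07, 8.02 and 8.06 to 7.61, 7.69 and 7.62. The 12 vehicle arrays read 7.91 to 8.16 and the 12 HRG arrays 7.61 to 7.98, and they overlapped through RNAi #1 HRG 2 alone. DOCK1 fell by 0.32 in parental, 0.41 in NTC, 0.27 in RNAi #1 and 0.21 in RNAi #2 cells (SE 0.062 each, limma adjusted p = 0.000302, 1.78e-05, 0.00194 and 0.0250), each under 1.5-fold. The last missed the threshold without any 1 of RNAi #2 vehicle 1 and 2 and RNAi #2 HRG 1, 2 and 3 (-0.18 to -0.21, limma adjusted p = 0.0517 to 0.108). With HRG, DOCK1 was higher than in controls by 0.18 with #1 (limma adjusted p = 0.0505) and by 0.17 with #2 (SE 0.054, limma adjusted p = 0.0314). The second missed the threshold without parental HRG 2, NTC HRG 1 or 3, or any RNAi #2 HRG array (0.16 to 0.18, limma adjusted p = 0.0552 to 0.0987), and also with NTC as the only control (limma adjusted p = 0.0735). The first passed with the replicate number as a block (limma adjusted p = 0.0333) and without dim probe sets (limma adjusted p = 0.0424). It also passed with arrays centred on their median (0.24, limma adjusted p = 0.0121). The same held without NTC HRG 2, RNAi #1 vehicle 1 or 2, RNAi #1 HRG 3 or RNAi #2 vehicle 3 (limma adjusted p = 0.0382 to 0.0486).

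ARHGEF7 moved least among the members above the array median, over 8.38 to 8.79. It passed in 1 comparison, a rise of 0.18 with HRG in RNAi #1 cells (SE 0.058, limma adjusted p = 0.0213), from 8.54, 8.43 and 8.54 to 8.56, 8.79 and 8.71. This missed the threshold without RNAi #1 vehicle 2, RNAi #1 HRG 2 or RNAi #1 HRG 3 (0.13 to 0.17, limma adjusted p = 0.0679 to 0.140). In parental cells the difference was 0.15 (limma adjusted p = 0.0591), and it passed with the replicate number as a block (limma adjusted p = 0.0487), without dim probe sets (limma adjusted p = 0.0498) and without the 4 arrays that stood apart (0.18, limma adjusted p = 0.0301). With HRG, ARHGEF7 was lower with #2 than with #1 by a log2 difference of -0.19 (SE 0.058, limma adjusted p = 0.0551). This passed with the replicate block (limma adjusted p = 0.0387), without dim probe sets (limma adjusted p = 0.0465) and with arrays centred on their median (-0.24, limma adjusted p = 0.0402).

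**Figure D3:**
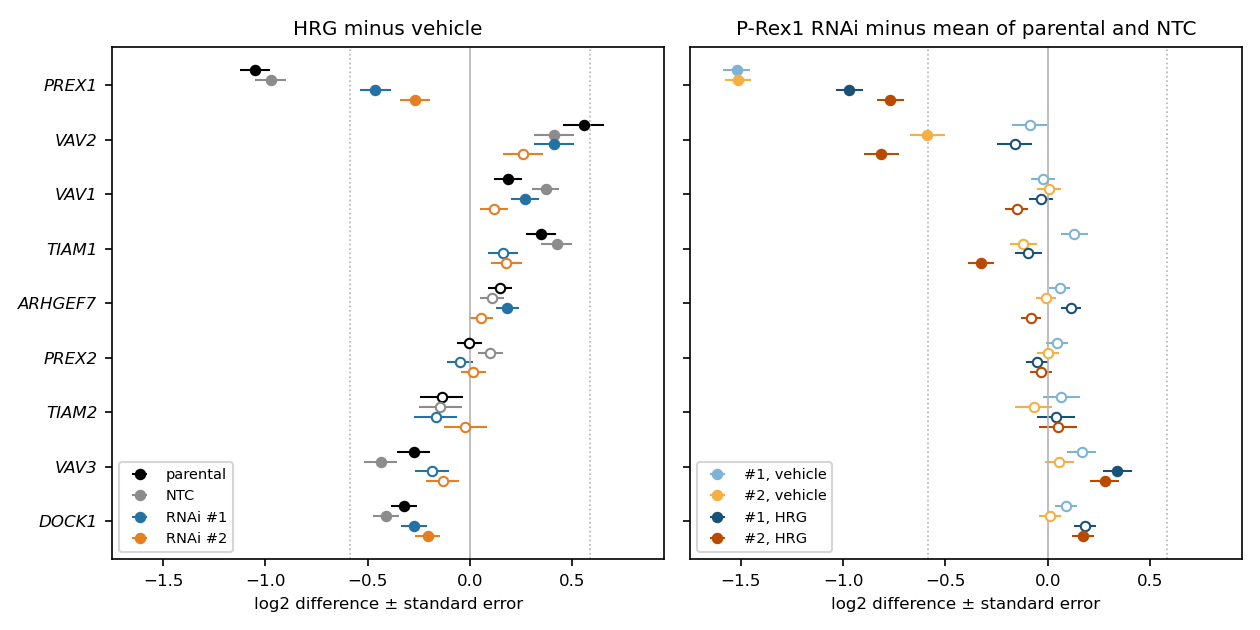
Log2 differences of the 9 members with standard errors (limma): HRG minus vehicle in each kind of cell (left) and P-Rex1 RNAi minus the mean of parental and NTC cells (right). Filled points have an adjusted p under 0.05, and dotted lines mark 1.5-fold: PREX1 lies past them with HRG in parental and NTC cells and under both duplexes, and VAV2 does under RNAi #2, while the other filled points, PREX1 with HRG in silenced cells included, lie inside.

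Counted together, HRG changed 6 of the 9 members at an adjusted p under 0.05 in parental cells (VAV1, VAV2 and TIAM1 up, PREX1, VAV3 and DOCK1 down), where 30.8% of the 21042 probe sets tested passed, 13.5% higher and 17.3% lower. The same 6 passed in NTC cells (31.2% of all), 5 in RNAi #1 cells (27.3%) and 2 in RNAi #2 cells (15.8%). A call additionally needed a fold change over 1.5, and 1 member, PREX1, had one in parental cells (5.27% of all probe sets, 2.86% higher and 2.41% lower) and in NTC cells (6.01%), and 0 members in RNAi #1 (3.67%) and RNAi #2 cells (1.73%). RNAi #1 called 1 of 9 without HRG (0.0285% of all) and 1 with HRG (0.185%), in each case PREX1, and RNAi #2 called PREX1 and VAV2 without HRG (0.181%) and with HRG (1.01%). The interaction was called for 0 members with #1 (0.171% of all) and for PREX1 with #2 (0.779%). RNAi #2 against #1 called 0 members without HRG (0.147% of all) and VAV2 with HRG (0.413%). NTC against parental cells called no member in either treatment (0% of all). With limma 0 of 9 members had an adjusted p under 0.05 without HRG (0.0095% of all) or with it (0%), and at an unadjusted p under 0.05 it was 1 of 9, PREX1, without HRG (5.72% of all) and 0 of 9 with HRG (9.65%). PREX1 read 0.18 lower in NTC than in parental cells without HRG (SE 0.075, limma adjusted p = 0.803).

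The members' median log2 effect of HRG was -0.002 in parental cells, beside -0.03 over all probe sets, and their median under RNAi without HRG was 0.06 with #1 and -0.01 with #2, beside 0.01 and 0.01. Rank Products, the rank-based test the study used, was run on the same values for the 8 HRG and RNAi comparisons. With the 1.5-fold threshold it called the same members as limma, but of the 29 member values with a limma adjusted p under 0.05 in these comparisons 20 did not pass it without that threshold. Those that passed were PREX1 under HRG in parental and NTC cells and under either duplex, VAV2 under RNAi #2, and VAV3 under RNAi #1 with HRG. Without the 4 arrays that stood apart, 4 member values no longer passed: VAV1 under HRG in parental cells, ARHGEF7 under HRG in RNAi #1 cells, DOCK1 under HRG in RNAi #2 cells and DOCK1 under RNAi #2 with HRG (limma adjusted p = 0.0882, 0.101, 0.0687 and 0.111). In the same setting 3 others passed: ARHGEF7 under HRG in parental cells, VAV3 under HRG in RNAi #1 cells and TIAM1 for #2 against #1 with HRG (limma adjusted p = 0.0301, 0.0289 and 0.0401).

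Over the 24 arrays no other member followed PREX1: Pearson's r with it ran from -0.44 (ARHGEF7) to 0.19 (TIAM2). The 5 probe sets most like PREX1 by r among those with a single symbol belonged to GNMT (0.90), LMO3 (0.90), C6orf141 (0.89), NPNT (0.87) and ERV3-1 (0.85). The arrays share cell kinds and treatments, and these correlations describe the group pattern. GNMT, which methylates glycine, went from a mean of 8.13 in parental cells with vehicle to 7.61 with HRG, and to 7.66 and 7.67 in RNAi #1 and #2 cells with vehicle. LMO3, a LIM-only transcriptional cofactor, was lower than in controls by 0.58 with #1 and 0.92 with #2 without HRG, and by 0.62 with HRG in parental cells. Both genes were picked for their likeness to PREX1 on these arrays, so their differences describe the choice and are given with no test.

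Several exchange factors outside the member list changed by more than 1.5-fold with HRG. Of 21 further Rac exchange factors and ELMO partners, 4 were called higher and 2 lower in parental cells, with a median log2 difference of -0.06, beside the 2.86% and 2.41% of all probe sets called. DOCK5, a relative of DOCK1, had the largest rise. Its arrays ran from 7.82 to 8.03 with vehicle and from 8.999 to 9.085 with HRG in parental cells, a 2.17-fold rise (log2 1.12, SE 0.060, limma adjusted p = 5.92e-12), while DOCK1 fell in the same cells. DOCK5 rose by 0.72 in RNAi #1 and 0.66 in RNAi #2 cells, and both interactions passed (-0.43 and -0.49, limma adjusted p = 0.00885 and 0.000283). TRIO, a factor with a pair of exchange domains, rose by 0.76 in parental cells and its interactions also passed (-0.42 and -0.44, limma adjusted p = 0.0233 and 0.00367). Over all probe sets, 1.16% passed the interaction with #1 and 3.94% with #2. DOCK5 and TRIO were named for changes on arrays that also enter these interactions, so the tests are not independent of that choice.

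SPATA13, which encodes the exchange factor Asef2, rose by 0.84 and DOCK10 by 0.89 in parental cells (SE 0.081 and 0.11, limma adjusted p = 4.07e-08 and 1.14e-06). ARHGEF6, which encodes alpha-PIX, the counterpart of beta-PIX, fell by 1.04 (SE 0.11, limma adjusted p = 1.03e-07) in parental cells. RASGRF1 fell by 0.86, although its other probe set gave -0.21. The duplexes moved DOCK10 in opposite directions with HRG, up by 0.43 against controls with #1 (limma adjusted p = 0.00856) and down by 0.60 with #2 (limma adjusted p = 8.75e-05). With HRG its arrays read 7.42 to 7.67 in RNAi #1 cells and 6.27 to 6.70 in RNAi #2 cells, with #2 lower by a log2 difference of -1.03 (SE 0.11, limma adjusted p = 3.25e-06). Without HRG neither duplex called any of the 21 genes (0.0285% of all probe sets with #1 and 0.181% with #2).

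Of 22 GAPs and GDIs for Rac, 1 was called higher and 2 lower with HRG in parental cells (median 0.09), beside 2.86% and 2.41% of all probe sets. SRGAP1, a GAP of the Slit-Robo pathway, rose 2.63-fold from 7.45 to 7.67 with vehicle to 8.79 to 9.08 with HRG (log2 1.40, SE 0.078, limma adjusted p = 1.38e-11), while its relative SRGAP2 fell by 0.92 and ARHGAP15 by 1.01. The SRGAP1 rise was 1.03 in RNAi #1 and 0.70 in RNAi #2 cells, and the interaction passed with #2 (-0.71, limma adjusted p = 7.99e-05) and not with #1 (-0.38, limma adjusted p = 0.0568). SRGAP1 was likewise named for its change on arrays that enter the interaction, so this test is not independent of that choice.

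Of 26 Rac effectors, 1 was called higher and 1 lower with HRG in parental cells (median -0.01). These counts are near the 2.86% and 2.41% of all probe sets called, so the genes named describe themselves alone and not the list. LIMK1, the kinase that inactivates cofilin downstream of PAK, rose by 0.62, and CYFIP2, a subunit of the WAVE complex, fell by 0.83. Of 29 genes that feed into P-Rex1, 2 were called higher and 2 lower (median -0.04), beside the same shares of all probe sets. CXCR4, the receptor for the chemokine CXCL12, rose by 1.04 (SE 0.12, limma adjusted p = 5.10e-07) and GNG12, a G protein gamma subunit, by 0.60, whereas the HRG receptors ERBB3 and ERBB4 fell by 0.77 and 0.70. Among the genes named for parental cells, those lower after 6 h of HRG included PREX1, both HRG receptors, DOCK1, VAV3, ARHGEF6 and SRGAP2. Those higher included CXCR4, GNG12, DOCK5, SRGAP1, VAV2 and TIAM1. The changes of DOCK1, VAV2, VAV3 and TIAM1 were under 1.5-fold, and the genes named do not describe their lists.

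**Figure D4:**
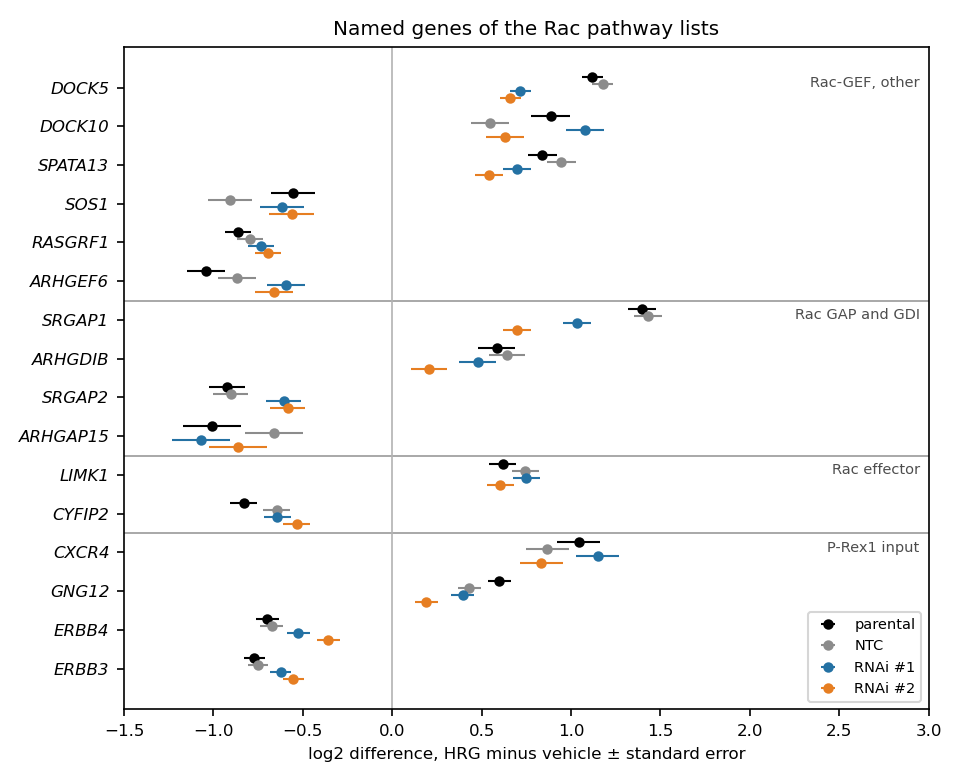
Log2 difference between HRG and vehicle with its standard error (limma) in 4 kinds of cells. Shown for each Rac pathway list are up to 4 called genes of largest change in parental cells and up to 4 in NTC cells. TRIO was called in both but was not among these, and is not drawn. DOCK5 runs from 1.12 in parental cells to 0.66 in RNAi #2 cells and SRGAP1 from 1.40 to 0.70, whereas CXCR4 stays between 0.83 and 1.15.

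With RNAi #2 and HRG, SPATA13 (-0.66), TRIO (-0.61), DOCK10 (-0.60) and SRGAP1 (-0.75) were called lower than in controls, all with limma adjusted p of 8.75e-05 or less. Of all probe sets 0.893% were called lower in that comparison. With #1 and HRG none of the genes on these 4 lists was called (0.185% of all probe sets), though DOCK5 was among those that passed the adjusted p alone (-0.31, limma adjusted p = 0.000961). The direct test of #2 against #1 with HRG passed for SPATA13 (-0.52), SRGAP1 (-0.43), DOCK5 (-0.25) and TRIO (-0.35), with limma adjusted p between 0.000411 and 0.0169. DOCK10 passed it too, as given above. On the 4 lists, 4 of 21, 3 of 22, 2 of 26 and 1 of 29 genes passed it, all lower. Of all probe sets 4.86% passed, 3.61% lower. These genes were named for changes on arrays that also enter this test, so it is not independent of that choice.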

How the data were processed

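The authors extracted RNA from T-47D cells, hybridized 24 Affymetrix Human Gene 1.0 ST arrays and normalized them with RMA, and they deposited log2 expression values for 28536 probe sets. Of these, 19292 carry a single gene symbol in the platform annotation, 1750 carry several and 7494 carry none. The annotation names no genome build, so no gene coordinates are given. All cells were serum-starved. For transfected cells the study gives 48 h of starvation, begun 16 h after transfection, and for parental cells the duration is not given in the sources read.

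The 21042 probe sets with a symbol were fitted here in 1 linear model with a mean per group (limma 3.58.1, R 4.3.3), with Benjamini-Hochberg adjustment over all of them and 14 comparisons. A call needed an adjusted p under 0.05 and over 1.5-fold. RNAi was compared with the mean of parental and NTC cells. "Passed" means the adjusted p alone. Exact permutation tests used scipy 1.17.1 (Python 3.11.15), and figures matplotlib 3.10.9. Promoter windows came from RefSeq tables. For a listed gene with several probe sets the brightest was used.

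Members, lists and tests were chosen with earlier results of these data known. Named genes were all members, the 5 probe sets most like PREX1, and up to 4 called genes of each list per comparison by size of change. Some of the lists are not reported here. Other values named for those genes, and TRIO in parental cells, were added after their values were seen. On simulated arrays the fit recovered 100 of 100 probe sets changed 2-fold for HRG in parental cells, 99 of 100 for RNAi #1 and 98 of 100 for its interaction, with 0, 0 and 2 false calls. The simulated noise was independent between arrays and few probe sets were changed. Deviations shared by replicate number and changes under 2-fold were therefore not covered. Replicates agreed at r = 0.9956 to 0.9986, and 0 array pairs were identical. Precision is set by the 3 arrays per group, as arrays have no read depth.

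Alternatives were the replicate number as a block, no probe sets below the 25% quantile, all probe sets, other variance models, arrays centred on their median, only the groups compared, NTC alone as control, no fold threshold or 2-fold, Rank Products (100 permutations), each array left out in turn and, added after seeing the data, the 4 arrays apart left out.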

Additional observations from a re-analysis of the deposited data

Results flagged for a closer look

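The effect of HRG on PREX1 differed between silenced and control cells, by a log2 difference of 0.55 with RNAi #1 and 0.74 with RNAi #2, each with a limma adjusted p under the threshold (0.00785 and 3.06e-05). The fall was larger in controls, where all 6 HRG arrays lay below all 6 vehicle arrays. The duplexes differed in VAV2, which was lower with RNAi #2 than with #1 by -0.50 without HRG and -0.65 with HRG (limma adjusted p = 0.00747 and 0.000312), all 3 #2 arrays lying below all 3 #1 arrays in each treatment. The siRNA sequences were not analysed here.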

How the results depend on the processing

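In all, 45 member values were followed through the alternatives, and 81 more passed the adjusted p in no setting, of which 31 changed sign somewhere. PREX1 kept its direction in every comparison with vehicle or control cells. Its #2 against #1 difference without HRG, 0.01, reversed to -0.037 without the arrays apart, and ranged from -0.037 to 0.056 over single arrays left out (without RNAi #1 vehicle 2 and RNAi #2 vehicle 3 it was below 0). Without the fold threshold, members called numbered 6, 6, 5 and 2 for HRG in parental, NTC, RNAi #1 and RNAi #2 cells, 2 and 5 for RNAi #1 and #2 with HRG, 1 for the #1 interaction and 1 for #2 against #1 without HRG. The calls gained were of VAV1, VAV2, VAV3, TIAM1, DOCK1, ARHGEF7 and PREX1 (-0.46 and -0.27 for HRG in RNAi #1 and #2 cells, 0.55 for the #1 interaction). With a 2-fold threshold 0 members remained for HRG in NTC cells, RNAi #1 and #2 with HRG, the #2 interaction and #2 against #1 with HRG, and 1 for RNAi #2 without HRG. The calls lost were PREX1 at -0.97 (NTC, and again RNAi #1 with HRG), -0.77 (RNAi #2 with HRG) and 0.74 (#2 interaction), and VAV2 under RNAi #2 in both treatments and against #1 with HRG. Centring arrays on the median gave 1 call for the #1 interaction (PREX1 at 0.64). Leaving out single arrays, members called ranged from 1 to 2 for HRG in parental cells (VAV2), 1 to 2 for RNAi #2 without HRG (VAV2) and 0 to 1 for the #1 interaction, where PREX1 ranged from 0.51 to 0.60 and was called without RNAi #1 vehicle 1 (0.60) or RNAi #1 HRG 2 (0.59).

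Of 33 member values past the adjusted p, 0 were lost with the replicate block, without dim probe sets, with arrays centred or with the other variance model, 1 with all probe sets, 5 with only the groups compared, 4 without the arrays apart and 9 without some single array. NTC alone as control lost 1 of 12, and Rank Products 20 of 29. Of the values that missed it, 5 passed with the replicate block, 3 without dim probe sets, 3 with arrays centred, 1 with NTC alone as control, 3 without the arrays apart and 7 without some single array. With the replicate number as a block no call at 1.5-fold changed, and PREX1 was -1.05 for HRG in parental cells. The 5 values that passed with it were ARHGEF7 for HRG in parental cells and for #2 against #1 with HRG, VAV3 and VAV2 for HRG in RNAi #1 and #2 cells, and DOCK1 for RNAi #1 with HRG. The labels tie no number to a shared batch. Pairing was required to show in every vehicle and HRG pair of one number (r over 0.1) and did in 10 of 12 (-0.053 to 0.39), so the numbers were not used as pairs. Arrays of one number did share deviations from their group means: 21 of 24 had their best match in another group at their own number. Between groups the mean r was 0.186 for the same number and -0.093 for other numbers. The SE and adjusted p of the main fit leave this sharing out. The cause of the changes between settings was not tested beyond what each setting alters. The 3 arrays per group limit the precision, and PREX2 and TIAM2 are too dim for small changes to be read.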
